A study of Sus scrofa with 40 samples.

Results

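The proteasome is the large protease that degrades ubiquitin-tagged proteins, and its genes were followed here across 4 meat cuts of the Chalu black pig. The members are the 44 genes, of 21280 in the deposited count table, whose symbol begins with PSMA, PSMB, PSMC, PSMD, PSME, PSMF or PSMG and a digit. They comprise 6 genes of the alpha ring and 5 of the constitutive beta ring of the 20S core, 4 beta subunits of immune and thymic proteasomes, 6 ATPases and 11 non-ATPase subunits of the 19S regulatory particle, 5 genes of the activators and an inhibitor, and 5 assembly chaperones. PSMC3IP and PSME3IP1 fit the symbol rule but code for interacting proteins that are no subunits. A symbol was missing in the table for PSMA1, PSMA2, PSMB6 and PSMD9, which the rule therefore did not take. They were recognised by their descriptions and are given apart. PSMB5 and PSMG1 were not analysed here.

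In the 20S core, alpha rings control entry to a chamber whose beta subunits cut the protein chain: PSMB6, PSMB7 and PSMB5 carry the constitutive active sites, and PSMB9, PSMB10 and PSMB8 replace them in the immunoproteasome. The 19S particle binds ubiquitin chains, removes them and unfolds the substrate with a ring of ATPases (PSMC genes) before it enters the core. Other caps, PA28 (PSME1 and PSME2, or PSME3) and PA200 (PSME4), open the core without ubiquitin recognition. In skeletal muscle the ubiquitin-proteasome system degrades myofibrillar proteins, and it has been studied in muscle wasting and in the ageing of meat.

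The pigs were males of one sire, reared together and slaughtered after fasting, and their age is not given in the labels. Muscle of the left side, trimmed of fascia, came from pork belly (PB), trapezius (TM), hamstring (HM) and longissimus dorsi (LDM), with no treatment named and 10 libraries per cut. The labels name no reference cut, so all 6 pairs of cuts were compared. Nothing in the labels says that libraries of the same number came from the same pig, or how many pigs were used, so p-values measure the spread between these libraries.

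Total counts ran from 12305913 to 17735722 reads per library. ACTA1, CKM, DES and MYOG, markers of skeletal muscle, were detected in each cut. All 9 slow-fibre markers were higher and all 8 fast-fibre markers lower in PB, TM and HM than in LDM. The mean share of mitochondrially encoded reads was highest in PB at 12.5 ± 1.96%, followed by HM at 9.12 ± 1.53%, TM at 7.53 ± 1.80% and LDM at 4.97 ± 0.827% (SD, n = 10). On its overall profile, HM9 lay nearest to the LDM mean, TM3 to HM, TM6 to PB and TM7 to LDM, and PB1 carries source and tissue fields that name the longissimus although its title and description say PB. A set of 4 libraries chosen from earlier work was left out together; it holds HM6, which lay nearest to its own cut, and not TM6. Without that set (HM6, HM9, TM3 and TM7) the members lower than in LDM numbered 23 in PB, 23 in TM and 15 in HM, and without PB1 23, 23 and 18, beside 23, 23 and 18 with all libraries, and without TM6 the count in TM was 23. LDM3 was the highest LDM library for 23 of 39 members and HM6 the lowest HM library for 22. As these are bulk samples, fewer cells of a type and less RNA per cell cannot be told apart.

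Levels of different genes were compared per length, as the authors' FPKM (counts scaled by gene length and library total), averaged over the 40 libraries. PSMD11, a 19S scaffold subunit, was the most abundant member at 144 FPKM, followed by PSMA7 of the alpha ring at 102, the 19S subunits PSMD3 at 97.1 and PSMD7 at 90.5, and PSMB4 of the beta ring at 69.8. Subunits that stand in equal copy number in the particle differed widely in deposited FPKM: within the ATPase ring PSMC2 reached 54.9 and PSMC3 4.95 FPKM, and within the beta ring PSMB2 reached 4.57. FPKM divides by the length of the deposited gene model, 2531 bases for PSMC2 and 9301 for PSMC3, so levels of genes depend on the models as well. Assembly chaperones were lower, from 3.14 FPKM for PSMD10 to 4.30 for PSMG4, and the immune subunits lower again by this measure, at 1.48 for PSMB10, 1.22 for PSMB8 and 0.509 for PSMB9. The PSMB10 model is 6072 bases long. In counts scaled to library size alone (CPM) PSMB10 averaged 8.91, inside the range of the chaperones, from 2.64 for PSMG3 to 11.7 for PSMD5.

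**Figure D1:**
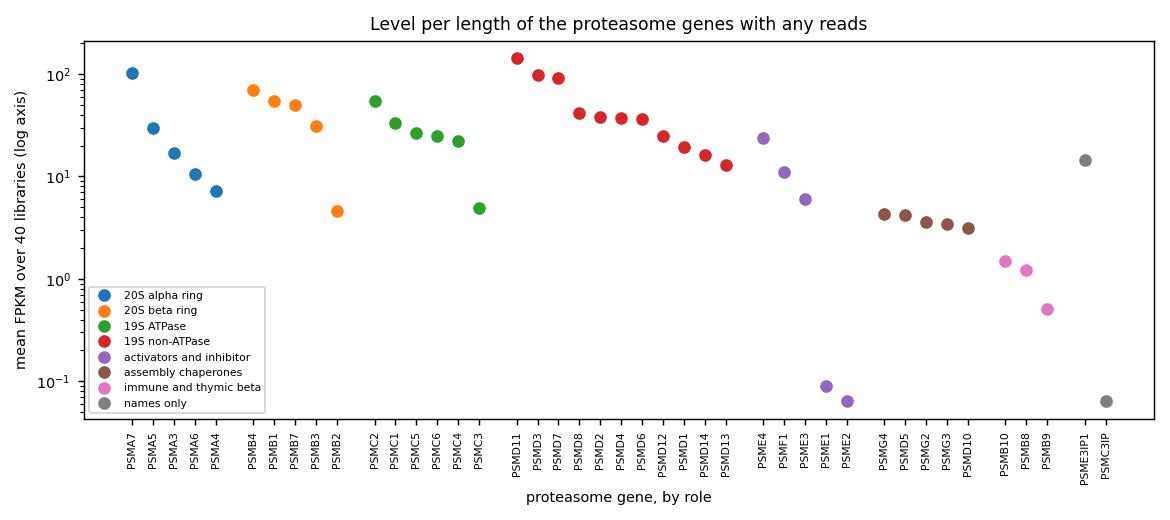
Mean FPKM over 40 libraries (log axis) of each member with any reads, grouped by role. PSMD11 stands highest at 144, the immune subunits lie between 0.509 and 1.48, and PSME1 and PSME2 are below 0.1.

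Of the 44 members, 39 passed the filter on low counts and were tested. PSMA8, a testis form of an alpha subunit, and PSMB11, the thymic beta subunit, had 0 reads in every library, where 3 counts in the smallest library would be 0.244 CPM. PSME1 and PSME2, which form the interferon-inducible PA28 cap, reached at most 0.566 and 0.702 CPM in any library, and PSMC3IP was as low. The deposited gene model of PSME2 lies wholly inside those of PSME1 and RNF31, so reads from this locus may have been left unassigned and their low values are uncertain. Values per library are counts scaled to the TMM-adjusted library size (CPM). Changes between cuts are log2 differences of the edgeR fit, the first cut named minus the second, with the SE of the fit.

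Any difference among the 4 cuts was called for 30 of the 39 tested members by edgeR's quasi-likelihood F test at an adjusted p under 0.05, against 57.2% of all 11713 genes tested. All 5 tested alpha subunits, 4 of 5 beta subunits, all 6 ATPases, all 11 non-ATPase subunits and all 3 tested activator and inhibitor genes passed. So did 1 of 5 assembly chaperones, while 0 of 3 tested immune subunits passed. For the immune subunits the count at an unadjusted p under 0.05 was also 0, and DESeq2 called 0 and limma-voom 1. By mean level, LDM was the highest cut for 27 of the 39 members, HM for 6, PB for 5 and TM for 1. The lowest cut was PB for 17 members, TM for 16, HM for 4 and LDM for 2. The order of cuts was not counted over all genes tested, so these counts have no background beside them.

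**Figure D2:**
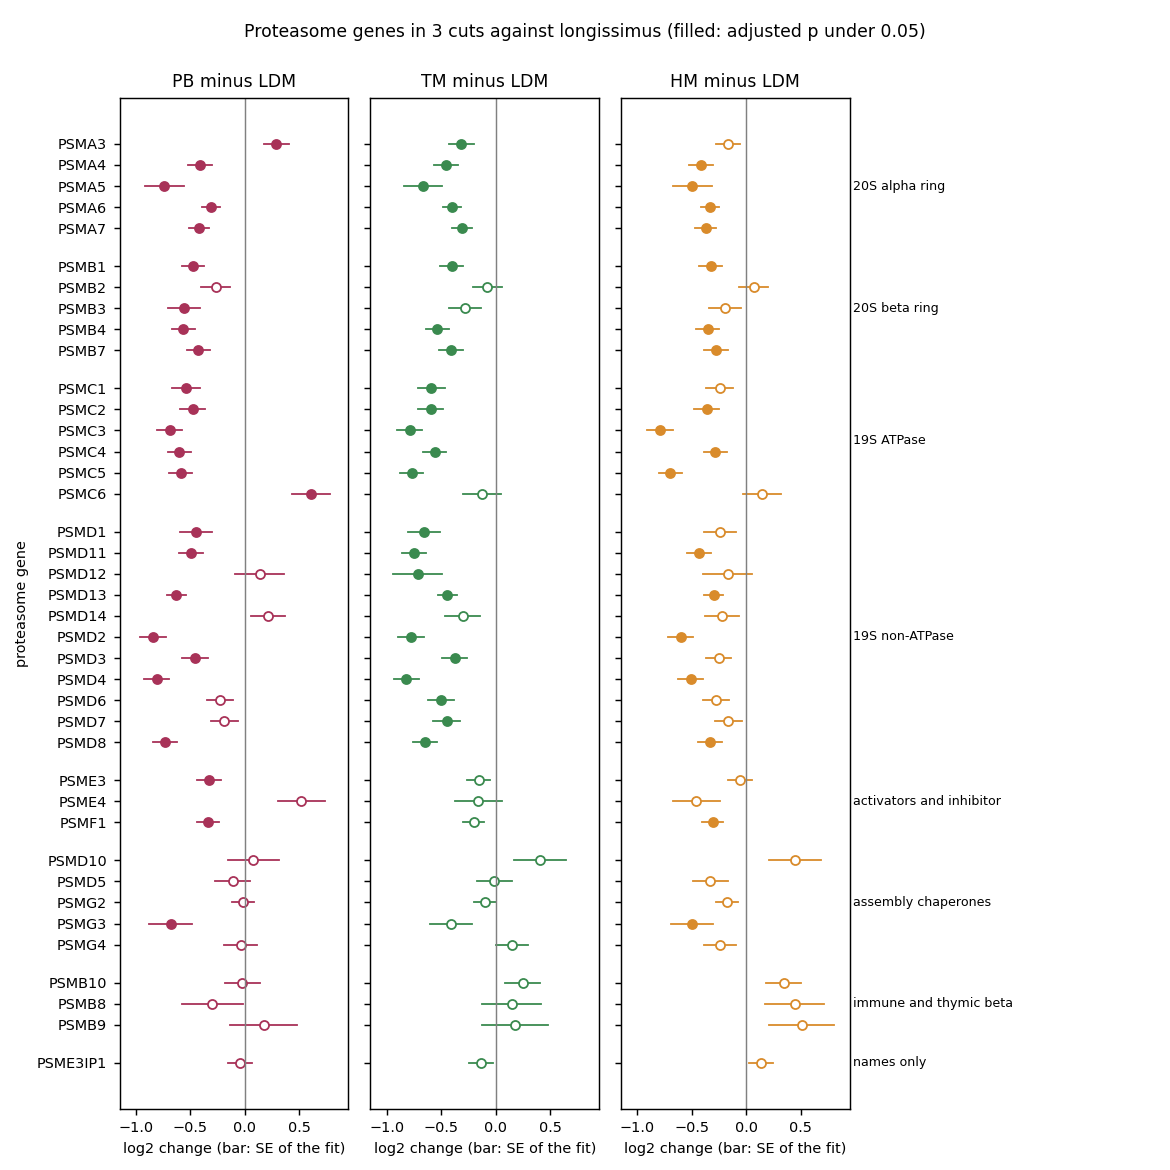
Log2 change of each tested member in PB, TM and HM against LDM, with the SE of the fit; filled points passed an adjusted p of 0.05. Most core and 19S subunits lie left of 0 in all 3 panels, while PSMA3 and PSMC6, both called, and PSMD12, PSMD14, PSME4, PSMD10 and PSMB9, not called, lie to the right in PB.

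Between PB and LDM, 23 of the 39 members were lower in PB and 2 higher, while 21.2% of all genes tested were lower, 20.5% higher and 41.7% called in either direction. The median log2 change of the members was -0.42, beside -0.02 over all genes tested. Lower in PB were 4 of 5 alpha subunits, 4 of 5 beta subunits, 5 of 6 ATPases, 7 of 11 non-ATPase subunits, 2 of 3 activator and inhibitor genes and 1 of 5 chaperones. PSMD2, PSMD4 and PSMA5 had the lowest changes, at -0.84, -0.81 and -0.74, and PSMC6 and PSMA3 were the 2 that were higher. The count of lower members was 23 without LDM3 and 22 to 23 with any 1 library left out.

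The comparison of TM with LDM gave 23 lower and 0 higher members. Among all genes, 13.4% were lower, 11.3% higher and 24.7% called in either direction, and the median change was -0.40 over the members and 0.04 over all genes. All 5 alpha subunits, 3 of 5 beta subunits, 5 of 6 ATPases and 10 of 11 non-ATPase subunits were lower, which accounts for all 23. PSMD4, PSMC3 and PSMD2 led at -0.82, -0.79 and -0.78. No member was higher at an unadjusted p under 0.05 in edgeR, nor by DESeq2 or limma-voom at the adjusted threshold.

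Between HM and LDM, 18 members were lower and 0 higher, against 16% and 16.5% of all genes and 32.5% in either direction. The members' median was -0.28, that of all genes 0.08. The lower members were 4 of 5 alpha subunits, 3 of 5 beta subunits, 4 of 6 ATPases, 5 of 11 non-ATPase subunits, PSMF1 and PSMG3, and PSMC3, PSMC5 and PSMD2 had the lowest changes, at -0.79, -0.70 and -0.60. At an unadjusted p under 0.05, 1 member was higher, and DESeq2 and limma-voom called 0. Leaving out 1 library gave 13 to 21 lower members, with 13 without HM6, 14 without LDM3 and 21 without HM9, where 1 member was also higher. The 3 comparisons with LDM share its 10 libraries and are therefore not independent of each other.

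Fewer members were called among belly, trapezius and hamstring. PB against TM gave 5 higher and 0 lower members, where 13.4% of all genes were higher, 9.69% lower and 23.1% called in either direction. The members' median of -0.02 beside -0.06 for all genes changes sign with the scaling, to 0.02 with DESeq2 size factors and to 0.05 with mitochondrial genes left out. In edgeR 1 member was lower at an unadjusted p under 0.05, 0 with DESeq2 and 1 with limma-voom. PB against HM gave 4 higher and 5 lower, with 13.5%, 14.1% and 27.6% for all genes higher, lower and in either direction, and medians of -0.15 and -0.05. The 5 lower members became 1 without HM9 and 8 without PB4, and the 4 higher members became 2 without any 1 of HM2, HM6, HM8, HM10, PB3, PB4 or PB8. TM against HM gave 0 calls in either direction, against 0.41% higher, 0.359% lower and 0.768% in all for the genes tested. Without adjustment, 1 member was higher and 9 lower at p under 0.05 in edgeR, DESeq2 called 0 and limma-voom 1 lower, and without HM6 edgeR called 2 lower.

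Separation between single libraries was counted as well. Every PB library was below every LDM library for 5 of 39 members, namely PSMC4, PSMD4, PSMD8, PSMD11 and PSMD13, and the same held for 1.46% of all genes tested. In TM against LDM it held for 7 members (PSMA6, PSMC2, PSMC5, PSMD2, PSMD4, PSMD8 and PSMD11) and 0.965% of genes, and in HM against LDM for PSMC3 alone and 0.973% of genes.

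Alpha-ring subunits gate the core. PSMA6 (chromosome 7, 64578241 to 64763281 of Sscrofa11.1) had 80.3 to 120.5 CPM in LDM (median 87.9), 48.2 to 85.9 in HM (73.5), 61.1 to 76.5 in TM (69.0) and 67.1 to 87.8 in PB (70.6). Its TM libraries all lay below the LDM libraries, while the highest HM and PB libraries reached into the LDM range. The log2 change was -0.40 ± 0.08 (SE; adjusted p = 4.63e-04) in TM, -0.33 ± 0.08 (SE; adjusted p = 0.00247) in HM and -0.31 ± 0.08 (SE; adjusted p = 0.00279) in PB. PSMA7 (chromosome 17, 61566373 to 61572438) ranged over 132 to 172 CPM in LDM (median 159.9), 99.4 to 137 in HM (121), 83.6 to 150.1 in TM (128) and 91.7 to 135 in PB (114). In PB it was at -0.42 ± 0.09 (SE; adjusted p = 4.15e-04) against LDM, with 7 of 10 PB libraries below the lowest LDM library. With upper-quartile scaling its call in TM was lost (adjusted p = 0.0585). PSMA4 and PSMA5 were likewise lower in all 3 cuts, at -0.45 and -0.67 in TM. The HM call of PSMA5 (-0.50 ± 0.18 SE, adjusted p = 0.0290) was lost without any 1 of HM6, HM8, HM10, LDM3 or LDM4, up to an adjusted p of 0.0946. Its model overlaps SYPL2 on the other strand over 59.7% of its span, and that of PSMA4 overlaps HYKK over 45.9%. Whether reads were counted by strand is not stated in any source used here, so such values are uncertain.

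Outside the symbol rule, PSMA2 was lower than in LDM in PB, TM and HM, at -0.44, -0.45 and -0.41, and PSMA1 in TM at -0.44 ± 0.15 (SE; adjusted p = 0.0239).

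Beta-ring subunits form the proteolytic chamber. PSMB4, a structural beta subunit (chromosome 4, 97835546 to 97837921), had 65.6 to 126 CPM in LDM (median 84.4), 47.1 to 83.8 in HM (67.0), 48.5 to 67.5 in TM (58.3) and 47.6 to 70.2 in PB (57.9). The LDM libraries were the highest group, with 9 of 10 PB libraries below all of them. Its changes were -0.57 ± 0.11 (SE; adjusted p = 5.90e-05) in PB, -0.54 ± 0.11 (SE; adjusted p = 2.98e-04) in TM and -0.36 ± 0.11 (SE; adjusted p = 0.00940) in HM. PSMB1, another structural subunit, ran through 48.1 to 81.0 CPM in LDM (median 58.7), 31.7 to 59.4 in HM (48.1), 38.8 to 54.7 in TM (44.04) and 35.3 to 53.7 in PB (42.2). It was lower in PB at -0.48, in TM at -0.40 and in HM at -0.33. PSMB7, which carries the trypsin-like site, gave 49.5 to 90.5 CPM in LDM (median 58.5), 33.2 to 65.1 in HM (50.4), 37.5 to 53.7 in TM (48.5) and 39.0 to 55.7 in PB (45.3). Groups overlapped in each pair, and the change was -0.43 ± 0.11 (SE; adjusted p = 0.00198) in PB and -0.41 ± 0.11 (SE; adjusted p = 0.00546) in TM. The smaller HM change of -0.28 ± 0.11 (SE; adjusted p = 0.0471) was lost without any 1 of 18 libraries, most of all LDM3 (adjusted p = 0.137). Libraries of PB and TM were among the 18.

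The caspase-like subunit PSMB6, outside the symbol rule, had the lowest change of the beta ring in each of the 3 comparisons with LDM. Its values were 67.4 to 116 CPM in LDM (median 80.3), 43.8 to 66.9 in HM (53.7), 42.7 to 68.6 in TM (52.8) and 40.3 to 65.9 in PB (54.1). All HM and PB libraries were below the LDM libraries, and the changes were -0.63 ± 0.10 (SE; adjusted p = 6.50e-06) in PB, -0.66 ± 0.10 (SE; adjusted p = 1.43e-05) in TM and -0.63 ± 0.10 (SE; adjusted p = 1.90e-05) in HM. PSMB3 was lower in PB than in LDM at -0.56 ± 0.15 (SE; adjusted p = 0.00217). In TM its change was -0.28 (adjusted p = 0.151), and PB and TM did not differ past the threshold (-0.28, adjusted p = 0.168). PSMB2 was called in no pair by edgeR, and its F-test adjusted p was 0.129 in edgeR, 0.208 in DESeq2 and 0.0294 in limma-voom.

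The ATPases turn ATP hydrolysis into unfolding. PSMC5 (chromosome 12, 15097650 to 15106205) had 183 to 327 CPM in LDM (median 229), 118 to 187 in HM (139), 117 to 169.5 in TM (134) and 134 to 208 in PB (148). Every TM library was below every LDM library, and 9 of 10 HM and 8 of 10 PB libraries were. The change was -0.77 ± 0.11 (SE; adjusted p = 4.45e-06) in TM, -0.70 ± 0.11 (SE; adjusted p = 9.94e-06) in HM and -0.59 ± 0.11 (SE; adjusted p = 3.51e-05) in PB. LDM was 1.70-fold above TM. PSMC3 (chromosome 2, 15066547 to 15193085) had 48.3 to 93.3 CPM in LDM (median 63.8), 30.1 to 46.4 in HM (39.0), 28.5 to 52.6 in TM (36.5) and 31.1 to 50.9 in PB (41.1). Here the HM libraries were fully separated from LDM. Changes were -0.79 ± 0.12 (SE; adjusted p = 6.79e-06) in HM, -0.79 ± 0.12 (SE; adjusted p = 9.63e-06) in TM and -0.69 ± 0.12 (SE; adjusted p = 1.50e-05) in PB. PSMC4 (chromosome 6, 48406376 to 48416216) gave 69.1 to 131 CPM in LDM (median 84.2), 52.0 to 97.1 in HM (74.9), 49.8 to 73.2 in TM (57.8) and 52.3 to 67.2 in PB (58.1). In contrast to PSMC5 and PSMC3, its HM mean of 73.5 ± 14.5 CPM lay between LDM at 89.5 ± 17.2 and PB at 58.9 ± 5.49 (SD, n = 10). PB was lower than LDM at -0.60 ± 0.11 (SE; adjusted p = 2.03e-05) and lower than HM at -0.32 ± 0.10 (SE; adjusted p = 0.0202), where the call was lost without any 1 of HM5, HM9, LDM5, LDM7, LDM9, TM3 or TM8, most of all HM9 (adjusted p = 0.145). LDM5, LDM7, LDM9, TM3 and TM8 belong to neither cut of that pair, and without any 1 of them the change was -0.23. Its HM call against LDM (-0.28) was lost without any 1 of HM4, HM6, HM7, HM8, HM10, LDM3 or LDM4, up to an adjusted p of 0.105. PSMC1 and PSMC2 were lower in PB and TM, at -0.54 and -0.48 in PB. In HM PSMC2 was also lower than in LDM, at -0.36 ± 0.11 (SE; adjusted p = 0.0136), while PSMC1 was not called (-0.25, adjusted p = 0.128). The PSMC5 model lies wholly inside that of FTSJ3 on the other strand and 95.8% of the PSMC3 span lies in that of CELF1 on the same strand, so both values are uncertain.

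Non-ATPase subunits make up the lid and the base of the 19S particle. PSMD4, a ubiquitin receptor (chromosome 4, 97994065 to 98004688), had 58.7 to 100.95 CPM in LDM (median 71.2), 28.1 to 76.0 in HM (50.5), 35.3 to 50.7 in TM (40.9) and 36.1 to 49.1 in PB (41.0). No PB or TM library reached the lowest LDM library. It was lower than in LDM at -0.81 ± 0.11 (SE; adjusted p = 7.99e-07) in PB, -0.82 ± 0.11 (SE; adjusted p = 4.45e-06) in TM and -0.51 ± 0.11 (SE; adjusted p = 7.18e-04) in HM, so that LDM exceeded TM 1.76-fold. Against HM, the PB change was -0.30 ± 0.11 (SE; adjusted p = 0.0468), a call lost without any 1 of 28 libraries, most of all HM9 (adjusted p = 0.413). Libraries of LDM and TM were among the 28. PSMD2, which with PSMD1 forms the scaffold of the base (chromosome 13, 122157036 to 122199464), had 299 to 566 CPM in LDM (median 377), 165 to 383 in HM (251), 193 to 297 in TM (219) and 178 to 302 in PB (225). The highest PB library, PB4, was the only one of its cut inside the LDM range. PSMD2 was at -0.84 ± 0.12 (SE; adjusted p = 5.68e-07) in PB, a 1.80-fold difference, -0.78 ± 0.12 (SE; adjusted p = 9.81e-06) in TM and -0.60 ± 0.12 (SE; adjusted p = 1.59e-04) in HM.

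PSMD13, a lid subunit (chromosome 2, 54433 to 74836), had 75.9 to 121 CPM in LDM (median 95.2), 57.2 to 88.1 in HM (79.4), 60.04 to 80.0 in TM (71.4) and 56.1 to 75.4 in PB (60.6). All PB libraries lay below LDM, and means stepped from LDM at 96.3 ± 14.5 to HM at 78.2 ± 8.54, TM at 70.7 ± 7.77 and PB at 62.2 ± 6.98 CPM (SD, n = 10). PB was lower than LDM at -0.63 ± 0.09 (SE; adjusted p = 6.27e-07) and than HM at -0.33 ± 0.09 (SE; adjusted p = 0.00414), TM and HM did not differ beyond their spread (-0.15, adjusted p = 0.507), and nor did PB and TM (-0.19, adjusted p = 0.122). The call against HM was lost without HM9 (adjusted p = 0.0648), and an unnamed gene model on the same strand spans the whole of PSMD13. PSMD8 was also lower in PB than in HM (-0.40 ± 0.11 SE, adjusted p = 0.00670), again lost without HM9 (adjusted p = 0.0662), and lower in PB, TM and HM than in LDM, at -0.73, -0.65 and -0.33, the last lost without HM6 or LDM3 (adjusted p up to 0.0731). PSMD11, the most abundant member, was at -0.50, -0.75 and -0.43 in the same order. PSMD1, PSMD3, PSMD6, PSMD7 and PSMD12 were lower in TM than in LDM, at -0.66, -0.38, -0.50, -0.45 and -0.71. In PB, PSMD1 and PSMD3 were also lower, at -0.45 and -0.46. In TM against LDM the call of PSMD3 was lost without LDM3 (adjusted p = 0.0533) and that of PSMD12 without LDM4 (adjusted p = 0.0504).

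**Figure D3:**
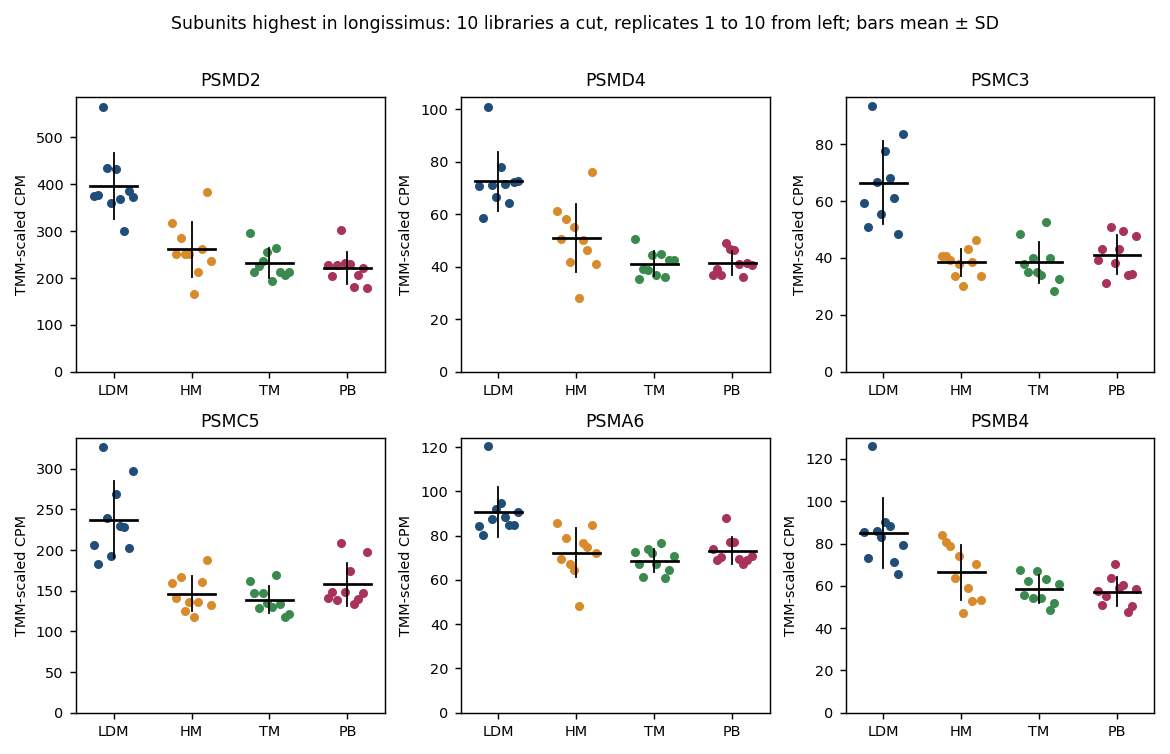
TMM-scaled CPM of 6 core and 19S subunits in each of 40 libraries, by cut, with mean and SD. LDM is the highest group in each panel; LDM3 is its highest library in all 6, and HM9 is the highest HM library in 4.

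A smaller set of members was higher in belly than in trapezius. PSMA3, PSMC6, PSMD12, PSMD14 and PSME4 were the 5 called higher in PB than in TM, at 0.60, 0.73, 0.85, 0.51 and 0.67. They make up 12.8% of the members tested, near the 13.4% of all genes. Against LDM only PSMC6 and PSMA3 were called higher in PB, 5.13% of the members beside 20.5% of all genes. PSMD14 is the deubiquitinase of the lid, PSMD12 a lid subunit, PSMC6 an ATPase, PSMA3 an alpha subunit and PSME4 the PA200 activator. Each had its highest mean in PB. They were picked out as a set by their values, so no test is attached to the set.

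PSMC6 (chromosome 1, 182328521 to 182354958) had 12.6 to 61.7 CPM in LDM (median 45.5), 27.5 to 62.4 in HM (48.3), 25.7 to 50.6 in TM (40.7) and 49.3 to 88.1 in PB (65.0). In 7 of 10 PB libraries it exceeded every LDM library, and in 9 of 10 every TM library. The changes were 0.61 ± 0.18 (SE; adjusted p = 0.00549) against LDM, 0.73 ± 0.18 (SE; adjusted p = 0.00246) against TM and 0.47 ± 0.18 (SE; adjusted p = 0.0436) against HM, the last lost without any 1 of 13 libraries, most of all HM10 (adjusted p = 0.0903). PSMA3 (chromosome 1, 187343507 to 187372215) had 31.5 to 63.5 CPM in LDM (median 48.4), 32.7 to 50.8 in HM (42.9), 29.5 to 53.7 in TM (37.9) and 48.6 to 63.0 in PB (60.2). PB exceeded TM by 0.60 ± 0.11 (SE; adjusted p = 1.42e-04) and HM by 0.46 ± 0.11 (SE; adjusted p = 0.00226), with 8 of 10 PB libraries above the highest library of TM and of HM. Its difference from LDM (0.29 ± 0.11 SE, adjusted p = 0.0372) was lost without any 1 of LDM6, LDM10, PB1, PB5, PB6, PB7 or PB10, up to an adjusted p of 0.0870, and no PB library exceeded the highest LDM library. TM was lower than LDM at -0.31 ± 0.11 (SE; adjusted p = 0.0368), lost without any 1 of 14 libraries, most of all LDM1 (adjusted p = 0.0986). PSMC6 was the only ATPase, and PSMA3 the only alpha subunit, among the members called higher in PB than in another cut.

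PSME4 (chromosome 3, 87231534 to 87337703) had 96.4 to 313 CPM in LDM (median 227), 84.0 to 242 in HM (165), 121 to 294 in TM (180.3) and 172 to 524 in PB (315). PB was above HM by 0.98 ± 0.22 (SE; adjusted p = 8.07e-04), a 1.97-fold difference and the largest between PB and HM among members, and above TM by 0.67 ± 0.22 (SE; adjusted p = 0.0203), lost without PB4 (adjusted p = 0.0518). Against LDM it was at 0.52 (adjusted p = 0.0509), with 5 of 10 PB libraries above the highest LDM library. PSMD12 ran over 27.1 to 180.3 CPM in LDM (median 95.4), 52.4 to 117 in HM (100.3), 36.0 to 97.5 in TM (56.3) and 74.6 to 142 in PB (113). The LDM libraries spread most, and TM was lower than PB (0.85 ± 0.22 SE for PB against TM, adjusted p = 0.00530) and than LDM (-0.71 ± 0.22 SE, adjusted p = 0.0168). PSMD14 had 11.7 to 36.3 CPM in LDM (median 26.04), 13.7 to 31.8 in HM (22.7), 15.6 to 29.8 in TM (20.4) and 24.7 to 36.1 in PB (29.8). PB was above TM by 0.51 ± 0.16 (SE; adjusted p = 0.0161) and above HM by 0.43 ± 0.16 (SE; adjusted p = 0.0375), the latter lost without any 1 of HM2, HM6, HM8, HM10, PB3, PB4, PB5 or PB8, up to an adjusted p of 0.0799. For all 5 genes LDM10 was the lowest LDM library and HM10 the lowest HM library. Without LDM10 the PB change of PSMC6 against LDM was 0.50 (adjusted p = 0.00704).

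**Figure D4:**
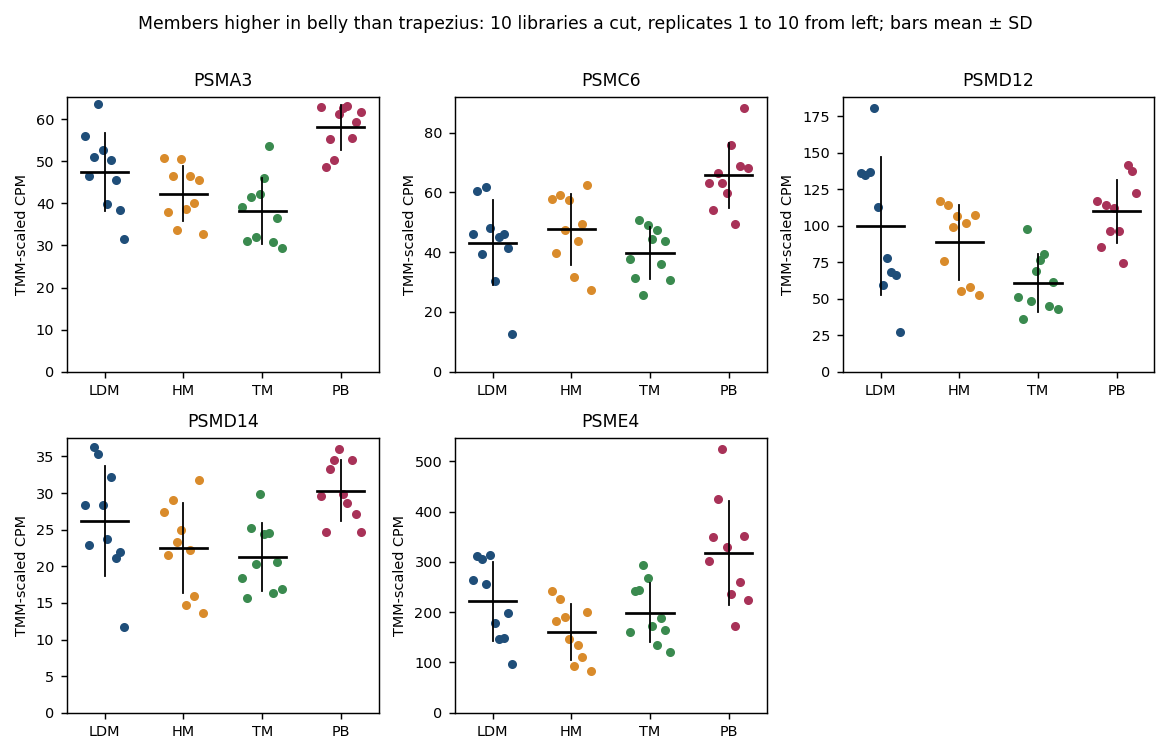
TMM-scaled CPM of PSMA3, PSMC6, PSMD12, PSMD14 and PSME4 in each of 40 libraries, by cut, with mean and SD. PB has the highest mean in each panel, and LDM10 and HM10 are the lowest points of their cuts.

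The remaining tested cap gene and the inhibitor were lower in PB than in LDM. PSME3, which forms the nuclear PA28 gamma cap, had 27.8 to 49.4 CPM in LDM (median 40.1), 29.97 to 54.9 in HM (35.6), 29.1 to 42.5 in TM (34.6) and 24.4 to 44.2 in PB (30.6). It was lower in PB than in LDM at -0.33 ± 0.11 (SE; adjusted p = 0.0137), lost without any 1 of LDM1, LDM7 or LDM9 (adjusted p up to 0.0764), and its model overlaps AOC2 over 46.5% of its span. PSMF1, the PI31 protein first described as a proteasome inhibitor, had 53.0 to 85.9 CPM in LDM (median 62.8), 42.9 to 69.9 in HM (51.7), 41.0 to 68.9 in TM (54.3) and 40.7 to 59.9 in PB (49.5). It was lower in PB (-0.34 ± 0.10 SE, adjusted p = 0.00589) and HM (-0.31 ± 0.10 SE, adjusted p = 0.0143) than in LDM.

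Assembly chaperones help the rings form and leave the finished particle. PSMG3 had 2.36 to 4.61 CPM in LDM (median 3.53), 1.34 to 4.03 in HM (2.01), 1.97 to 3.50 in TM (2.49) and 1.32 to 3.15 in PB (2.07). It was lower in PB than in LDM at -0.68 ± 0.19 (SE; adjusted p = 0.00462), and in HM at -0.50 ± 0.19 (SE; adjusted p = 0.0436), where leaving out any 1 of 15 libraries ended the call, most of all LDM1 (adjusted p = 0.0963). PSMG4 had 5.01 to 6.98 CPM in LDM (median 6.19), 3.88 to 7.89 in HM (5.17), 4.36 to 11.06 in TM (6.59) and 4.01 to 7.87 in PB (6.11). PSMD10, also known as gankyrin, ran through 2.35 to 5.79 CPM in LDM (median 3.90), 2.91 to 8.90 in HM (5.39), 2.83 to 10.4 in TM (4.22) and 1.62 to 8.59 in PB (3.25). Their ranges overlapped in every pair. The F-test adjusted p of PSMG4 was 0.125 in edgeR, 0.113 in DESeq2 and 0.0281 in limma-voom, and that of PSMD10 0.202, 0.222 and 0.0203, so both passed with limma-voom alone among these tools. PSMD5 and PSMG2 passed with none of them, at 0.215 and 0.372 in edgeR. PSMD9, outside the symbol rule, was lower than in LDM at -0.47 in PB, -0.40 in TM and -0.31 in HM.

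The inducible beta subunits were low, and LDM was not their highest cut. PSMB10 had 5.69 to 10.4 CPM in LDM (median 8.48), 4.76 to 14.5 in HM (10.2), 7.37 to 14.7 in TM (8.92) and 5.55 to 12.4 in PB (7.79). PSMB8 ranged over 1.17 to 5.89 CPM in LDM (median 3.05), 1.40 to 6.64 in HM (5.40), 1.62 to 6.21 in TM (3.28) and 1.16 to 3.72 in PB (2.94). The least abundant, PSMB9, gave 0.391 to 1.57 CPM in LDM (median 0.798), 0.521 to 2.07 in HM (1.297), 0.474 to 1.55 in TM (1.04) and 0.280 to 1.92 in PB (0.808). The cuts overlapped for each gene, and by mean HM was the highest cut for all 3. The F test in edgeR gave adjusted p of 0.0962, 0.111 and 0.442, and in limma-voom PSMB10 passed at 0.0316. The pairs gave 1 call in edgeR, PSMB8 lower in PB than in HM at -0.74 ± 0.28 (SE; adjusted p = 0.0421), and it was lost without any 1 of 19 libraries, most of all HM7 (adjusted p = 0.106). The models of PSMB8, PSMB9, TAP1 and TAP2 overlap, so reads may be shared or dropped among them. That of PSMB10 overlaps CTRL on the same strand over 26.8% of its span and PSKH1 on the other strand over 44.3%. PSME3IP1, which codes for an interacting protein and no subunit, had an F-test adjusted p of 0.155.

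Genes that work with the proteasome were counted from lists drawn up with results of these data known. Of 11 tested genes for further subunits, assembly and docking, 5 were lower and 1 higher in PB than in LDM, 8 were lower in TM and 5 in HM. Over all genes tested, 21.2% were lower and 20.5% higher in PB, 13.4% lower in TM and 16% lower in HM. ADRM1, a ubiquitin receptor of the 19S base, was lower in PB, TM and HM at -0.71, -0.58 and -0.68, as were UBE3C, a ubiquitin ligase that acts at the proteasome, at -0.58, -0.46 and -0.52, and ZFAND5, an activator, at -0.59, -0.61 and -0.55. The maturation factor POMP was higher in PB at 1.03 (adjusted p = 0.00965). In PB against HM 3 were higher, beside 13.5% of all genes, and in PB against TM 4 were higher and 1 lower, beside 13.4% and 9.69%. The deubiquitinases UCHL5 and USP14 were higher in PB than in TM at 0.74 and 0.58, and ECPAS, a proteasome adaptor, at 0.50; against HM the values were 0.73, 0.50 and 0.55.

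Genes of ubiquitin supply and delivery were counted next. Of 14 tested, 10 were lower in PB than in LDM, 8 in TM and 9 in HM, beside 21.2%, 13.4% and 16% of all genes tested. The medians were -0.41, -0.38 and -0.39, and those of all genes -0.02, 0.04 and 0.08. SQSTM1, an adaptor for ubiquitinated cargo, was at -1.16 (adjusted p = 5.32e-08) in PB and -1.09 (adjusted p = 2.05e-06) in TM, NPLOC4, a cofactor of the segregase VCP, at -0.76 and -0.77, and VCP itself at -0.65 and -0.55. UBB was called in no pair. NFE2L1, the factor that induces proteasome genes when activity falls short, was called in no pair either, with -0.27 (adjusted p = 0.160) between PB and LDM. Its relative NFE2L2 was higher in PB than in LDM, HM and TM at 1.39 (adjusted p = 2.39e-06), 1.002 (adjusted p = 3.86e-04) and 0.82 (adjusted p = 0.00345). Of the 6 tested control genes 1 was higher and 3 lower in PB than in LDM, beside 20.5% and 21.2% of all genes. Against HM 1 was higher and 2 lower in PB, beside 13.5% and 14.1%, and against TM 1 and 1, beside 13.4% and 9.69%. NFE2L2 was the higher gene in each of these pairs.

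Antigen presentation and interferon genes, which include partners of the immunoproteasome, had 6 of 11 tested genes higher in HM than in LDM, beside 16.5% of all genes, and a median of 0.40 beside 0.08. TAP2 was at 0.52 (adjusted p = 8.61e-04), B2M at 0.40 (adjusted p = 0.0142) and NLRC5, an activator of MHC class I genes, at 0.50 (adjusted p = 0.0282). In PB 4 were lower than in HM, beside 14.1% of all genes. Of 6 autophagy genes, 2 were higher and 2 lower in PB than in LDM, beside 20.5% and 21.2% of all genes. In either direction 4 of the 6 were called, beside 41.7% of all genes, and the list is short. ATG5 was at 0.96 (adjusted p = 1.29e-05) and ULK1 at -0.54 (adjusted p = 0.00241).

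Summed over the 44 members, LDM libraries held 3178 to 5209 CPM (median 3597), HM 1903 to 3610.1 (2801), TM 2273 to 3015 (2539) and PB 2477 to 3435 (2872). Fast-fibre markers, 8 genes, summed to 57217 to 103510 CPM in LDM, 16799 to 69490 in HM, 10907 to 54601 in TM and 22735 to 67666 in PB. HM9 had the highest fast-fibre sum of HM and its highest proteasome sum, 3610.1 CPM. TM5, with the lowest fast-fibre sum of TM, had the highest TM proteasome sum of 3015 CPM. PB10 had the highest fast-fibre sum of PB and a proteasome sum of 2782 CPM, below the PB median. LDM10 had the highest fast-fibre sum of LDM, 103510 CPM, and a proteasome sum of 3427 CPM, below the LDM median. These are single libraries, and a relation between the sums was not tested. HM6, the lowest in HM at 1903 CPM, had a fast-fibre sum of 33318 CPM near the HM median of 34435 and the highest HM sums of fibroblast and adipocyte markers, at 2734 and 224 CPM.

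**Figure D5:**
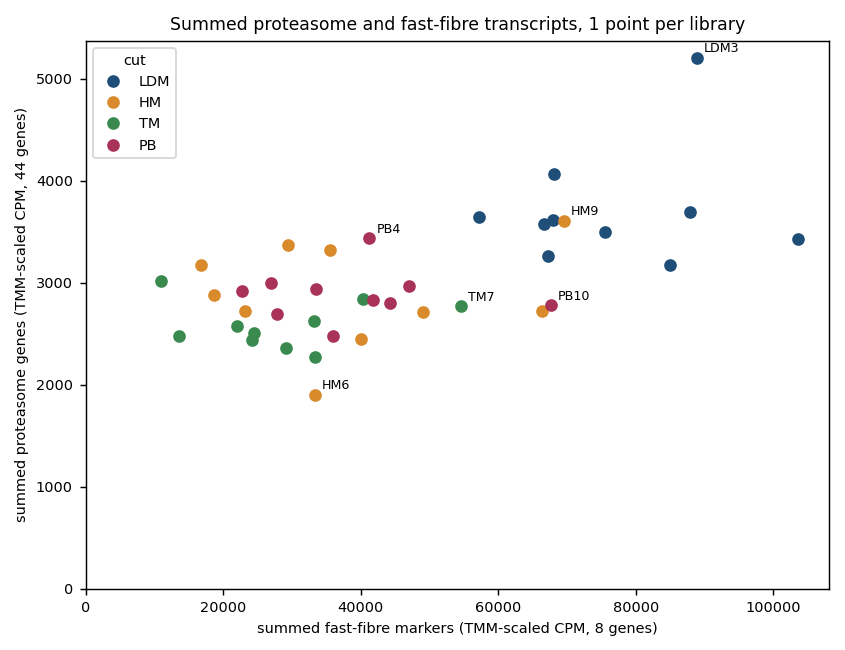
Summed proteasome CPM (44 genes) against summed fast-fibre marker CPM (8 genes), 1 point per library. LDM libraries lie at the right and top, LDM3 at 5209 CPM is the highest, and HM9 lies among LDM while HM6 at 1903 CPM is the lowest.

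Slow-fibre markers, 9 genes, summed to 7045 to 25129 CPM in LDM, 13850 to 82096 in HM, 8939 to 122980 in TM and 25996 to 66360 in PB. All 6 endothelial markers were higher in HM and TM than in LDM and 2 in PB, with sums of 244 to 361 CPM in LDM, 294 to 846 in HM, 237 to 681 in TM and 234 to 650 in PB. Of 9 tested leukocyte markers 3 were higher and 1 lower in PB than in LDM, LYZ had 0 reads in every library, and the sums were 310.1 to 499 CPM in LDM, 289 to 467 in HM, 336 to 523 in TM and 268 to 679.6 in PB. Of the 6 fibroblast markers 1 was higher in PB and 1 in HM than in LDM, with sums of 465.8 to 1101 CPM in LDM, 573 to 2734 in HM, 775 to 1749.6 in TM and 211 to 3059.8 in PB. Adipocyte markers summed to 59.6 to 244 CPM in LDM, 28.7 to 224 in HM, 121 to 369 in TM and 33.3 to 314 in PB. The fibre-type markers and the mitochondrial share moved with the difference of LDM from PB, TM and HM, and the endothelial markers with that of LDM from TM and HM. In PB the median endothelial sum was 326 CPM, beside 312 in LDM. Their part in the proteasome results was not tested.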

How the data were processed

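RNA-seq was made from 40 muscle libraries with a stranded KAPA kit after Trizol extraction, per the labels' protocols. The authors deposited 1 table of read counts per gene and of FPKM. HISAT2 2.0.5, cutadapt 1.15, HTSeq 0.9.1 and the build Sscrofa11.1 are listed, per the submitters' processing notes. Whether reads were counted by strand is not stated in any source used here. The deposited FPKM equalled the deposited counts scaled by gene length and total count for 100% of values, within a tolerance of 0.001, and served only to compare levels between genes. Total counts of 12305913 to 17735722 limit the precision for low genes.

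Counts were fitted with edgeR 4.0.16 in R 4.3.3 (TMM factors, filterByExpr, robust quasi-likelihood) over all 40 libraries with the cut as factor. The 6 pairs of cuts and the F test were adjusted by Benjamini-Hochberg over 11713 genes, each pair and the F test on its own, with a threshold of 0.05. The fit was tested on simulated counts. No 2 libraries agreed within sampling noise, the smallest chi-square per gene being 29.8 over genes with at least 20 counts. Alternatives used other scaling factors, DESeq2 1.42.0, limma 3.58.1, other filters, a block, single pairs and left-out libraries. Members and gene lists were chosen with earlier results of these data known. Values per cut are printed for up to 3 members of each role with the smallest F-test p, for a set of core, immune and cap genes, and the 3 highest and 3 lowest called changes of each pair are named. PSMD12 and PSMD14 were added in full after their values were seen, as the other members called higher in PB than in TM. The table was matched by symbol, and no sequence is printed.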

Additional observations from a re-analysis of the deposited data

Results flagged for a closer look

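In 26 of 172 groups of 10 libraries, 1 library stood apart from the other 9 by more than Dixon's 95% limit. Independent, normally distributed values pass that limit in about 1 in 20 groups. The CPM were not logged and the same libraries recur in the groups, so the 26 cannot be set against that rate. LDM3 was the library that stood apart, as the highest of LDM, for 13 genes. Its values were 120.5 CPM for PSMA6, 99.1 for PSMA4, 125.9 for PSMB4, 90.5 for PSMB7, 81.0 for PSMB1 and 57.3 for PSMB3 in the core. In the 19S particle they were 257.5 for PSMC2, 566.0 for PSMD2, 830.5 for PSMD11, 421.5 for PSMD3, 143.1 for PSMD8, 110.6 for PSMD6 and 100.95 for PSMD4. The other LDM libraries reached at most 607 CPM for PSMD11 and 435 for PSMD2.

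PB4 was the highest PB library for PSMA6 at 87.8 CPM and for PSMD2 at 301.7. HM6 was the lowest HM library for PSMD13 at 57.2 CPM, below 75.2 to 88.1 in the others. PSME3 stood out in HM5 at 54.9 CPM and in PB8 at 44.2, and PSMF1 in HM8 at 69.9. PSMB10 was highest in TM10 at 14.7 CPM and PSMD10 in TM3 at 10.4. PSMG4 was highest in HM5 at 7.89 CPM and in TM9 at 11.06. PSMB3 was highest of TM in TM5 at 39.7 CPM, as was PSMA1, outside the symbol rule, at 46.0. PSMD9, also outside it, was highest of HM in HM9 at 12.6 CPM.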

How the results depend on the processing

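Of 80 called changes of a member in a pair, 61 passed under every alternative and with every library left out. Over the alternatives 37 of 880 values lost the call and 0 reversed, and with 1 library left out 151 of 3200 did and 0 reversed. All libraries share 1 fit, whose scaling factors were computed anew each time, and leaving out a library of neither cut also ended some calls. These were PSMC4, PSMD4 and PSMB8 in PB against HM, PSMB7 and PSMG3 in HM against LDM, and PSMA3 in TM against LDM. In PB against HM the change itself moved. Without LDM7 it went from -0.32 to -0.23 for PSMC4, from -0.30 to -0.21 for PSMD4 and from -0.74 to -0.65 for PSMB8. The part of the scaling factors in this was not tested. With 1 library left out, the F test called 28 to 31 members. PB against LDM gave 1 to 3 higher and 22 to 23 lower, PB against HM 2 to 5 and 1 to 8, and PB against TM 4 to 8 and 0 to 0. TM against LDM gave 0 to 0 and 21 to 24, HM against LDM 0 to 1 and 13 to 21, and TM against HM 0 to 0 and 0 to 2. Without PB1, PB against LDM had 1 higher member. PB against HM had 5 lower members, but 3 with DESeq2 size factors, 8 with upper-quartile factors, 2 with mitochondrial genes out, 10 with limma-voom, 3 without a filter, 3 without PB1, 8 without HM6, HM9, TM3 and TM7, and 3 from the pair alone. PB against TM had 1 lower with upper-quartile factors and 1 with limma-voom, TM against HM 1 lower with limma-voom, and HM against LDM 1 higher without HM6, HM9, TM3 and TM7. The cause was not tested. Upper-quartile factors moved the median change of all genes in PB against TM from -0.06 to -0.11.

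The labels do not say that a library number marks a pig. The correlation of deviations of same-numbered libraries was over 0.1 for 8 to 10 of 10 numbers in a pair, down to -0.13. Its median in a pair ran from 0.19 to 0.28, beside -0.04 to -0.03 for libraries of other numbers. In all, 24 of 40 libraries correlated best with their own number, a hint from the data and not the design. With the number as a block, 32 members passed the F test, and the pairs gave 3 higher and 23 lower (PB against LDM), 4 and 7 (PB against HM), 6 and 0 (PB against TM), 0 and 23 (TM against LDM), 0 and 21 (HM against LDM) and 0 and 0 (TM against HM). Of the 80 calls, PSMD4 in PB against HM was lost under the block.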
